A study of Homo sapiens with 24 samples.

Results

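Ragulator is the LAMTOR protein complex that sits on the lysosomal membrane and docks the Rag GTPases, which in turn recruit the kinase mTOR within mTORC1 when amino acids are plentiful. The 10 genes described here encode its subunits (LAMTOR1, LAMTOR2, LAMTOR3, LAMTOR4 and LAMTOR5), the Rag GTPases (RRAGA, RRAGB, RRAGC and RRAGD) and the kinase itself (MTOR). They were picked by symbol out of the 58174 genes listed in each of the 4 deposited tables, and all 10 were found in every table. LAMTOR5 was the reason for the choice, because its RNA was lower after IGF2BP1 depletion in every cell line, and its knockdown values are therefore given as a description with no test. The other 9 genes, called partners below, serve as the comparison and were tested.

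IGF2BP1 is an oncofetal RNA-binding protein known for protecting bound mRNAs from decay. Total RNA was sequenced after depletion of ribosomal RNA in 4 human cancer cell lines without engineered alleles: A549 (lung adenocarcinoma), ES2 (ovarian clear cell carcinoma), MV3 (amelanotic melanoma) and PANC1 (pancreatic ductal adenocarcinoma). Each line gave 3 libraries from cells transfected with a control siRNA (siC) and 3 from cells that received a pooled siRNA directed at IGF2BP1 (siI1), 24 libraries in all. RNA was harvested 72 h after transfection in A549, ES2 and MV3 and 96 h after it in PANC1, so the later time and the PANC1 line cannot be told apart. A transient siRNA pool lowers IGF2BP1 without removing it, and each line stands for a single tumour.

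The libraries held 3105215 to 20082702 assigned reads, with A549 the shallowest line (3105215 to 4553326) and MV3 the deepest (15572492 to 20082702). IGF2BP1 itself checked the labels: its FPKM (read counts scaled by gene length and library size) went from 39.7 ± 0.0742 to 15.6 ± 0.674 in A549 (SD, n = 3), and siC and siI1 libraries did not overlap in any line. Epithelial keratins were abundant in A549 and PANC1 (mean KRT8 of 512 and 717 FPKM in siC). The epithelial markers EPCAM (1.17 and 3.59 FPKM) and CDH1 (18.4 and 4.55 FPKM) were lower there. Of the mesenchymal markers, VIM was at 248 and 541 FPKM and FN1 at 58.4 and 0.0471 FPKM in these lines. Of the pancreatic ductal markers in PANC1, SOX9 was at 18.2 FPKM, KRT7 at 2.88 FPKM and MUC1 at 0.857 FPKM, with KRT7 at 399 FPKM in A549. Several defining markers of tissue origin were near 0: NKX2-1 and SFTPB were at 0 in A549, PAX8 was at 0.157 FPKM in ES2, and SOX10, TYR and S100B were at 0 in MV3. The leukocyte marker PTPRC stayed at or below 0.0111 FPKM on average in the siC libraries of each line. In PANC1 the FPKM of all genes summed to 526337 to 756438 per siC library and to 977547 to 1191710 per siI1 library, while in the other lines the sums of the 2 groups overlapped. The scale chosen for PANC1 therefore moves every PANC1 value. Rescaling all libraries to the same sum shifted the median log2 fold change of all PANC1 genes from −0.04 to −0.68. Assigned reads overlapped between the groups, at 6723908 to 8472851 per siC library and 6532175 to 7147999 per siI1 library of PANC1. Scaling by assigned reads alone put that median at −0.18. The PANC1 values of the members are also given relative to the median of all PANC1 genes.

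LAMTOR5 lies on the minus strand of chromosome 1 (hg38, chr1:110401249-110407942). Its longest annotated 3′UTR in GENCODE 44 is 274 nt, and 8.75% of the 9587 protein-coding genes with a 3′UTR and a test in all lines had a shorter one (median 1535 nt). The short stretches below show the only GGAC word of this 3′UTR, the core letters of a common RNA methylation site to which IGF2BP proteins are known to bind, and its 2 ATTTA words, the core of AU-rich elements. The words start 161, 99 and 129 nt after the stop codon. Capitals mark the word that was searched for, on the transcript strand only, and the letters are from the GENCODE 44 transcripts of hg38, 5′ to 3′.
LAMTOR5 GGAC at 161: atgctctatGGACcgactatca
LAMTOR5 ATTTA at 99: aggccattcATTTAatgtgcatt
LAMTOR5 ATTTA at 129: tttctgtttATTTAagagtcaat

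GGAC was common in 3′UTRs about as short as that of LAMTOR5, and ATTTA less so. GGAC was present in 61.5% of the 598 3′UTRs of similar length (205 to 342 nt) and in every member but RRAGB, with 7 copies in RRAGD and 6 in RRAGC. ATTTA was found in 33.8% of those 3′UTRs and 2 or more times in 12.9%. Among the members it occurred 9 times in RRAGD, 7 times in LAMTOR3, 4 times in RRAGC, 3 times in RRAGA and not in LAMTOR1, LAMTOR2, LAMTOR4, RRAGB or MTOR. A match of letters is a description and says nothing about binding.

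LAMTOR5 RNA was lower in every siI1 library than in every siC library of its line. LAMTOR5 forms, with LAMTOR4, one of the paired roadblock-domain modules of Ragulator, and it is also known as HBXIP, a binding partner of a hepatitis B virus protein. In A549 the siC libraries were at 18.8, 21.8 and 16.3 FPKM and the siI1 libraries at 7.16, 8.93 and 8.63 FPKM. In ES2 they were at 23.1, 22.2 and 22.1 FPKM against 7.94, 8.25 and 8.92 FPKM. In MV3 they were at 29.3, 28.9 and 24.5 FPKM against 12.2, 12.2 and 12.4 FPKM. In PANC1 they were at 18.3, 17.9 and 18.4 FPKM against 7.90, 6.54 and 8.05 FPKM. The gap between the groups was thus wider than the spread within either group in each line. In whole cultures, fewer cells expressing a gene and less RNA per cell cannot be told apart.

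On the log2(FPKM + 0.5) scale, on which all fold changes below are given, LAMTOR5 differed by −1.15 ± 0.13 for A549 (SE, 3 against 3 libraries), −1.37 ± 0.06 for ES2, −1.13 ± 0.07 for MV3 and −1.23 ± 0.09 for PANC1. The siI1 level was therefore between 0.386 (ES2) and 0.457 (MV3) of the siC level. Ordered from the lowest fold change among protein-coding genes tested, LAMTOR5 ranked 116 of 11756 for A549, 33 of 11171 for ES2, 20 of 10960 for MV3 and 39 of 11109 for PANC1. Non-overlapping lower values alone were common, with 18.5%, 22.6%, 25.9% and 23.8% of all tested genes in A549, ES2, MV3 and PANC1. Relative to the median of all genes, the PANC1 value was −1.19 on the deposited scale and −1.27 after rescaling to the same sum. The reads behind these values numbered 55 to 207 per library in A549 and 584 to 1083 in MV3.

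**Figure D1:**
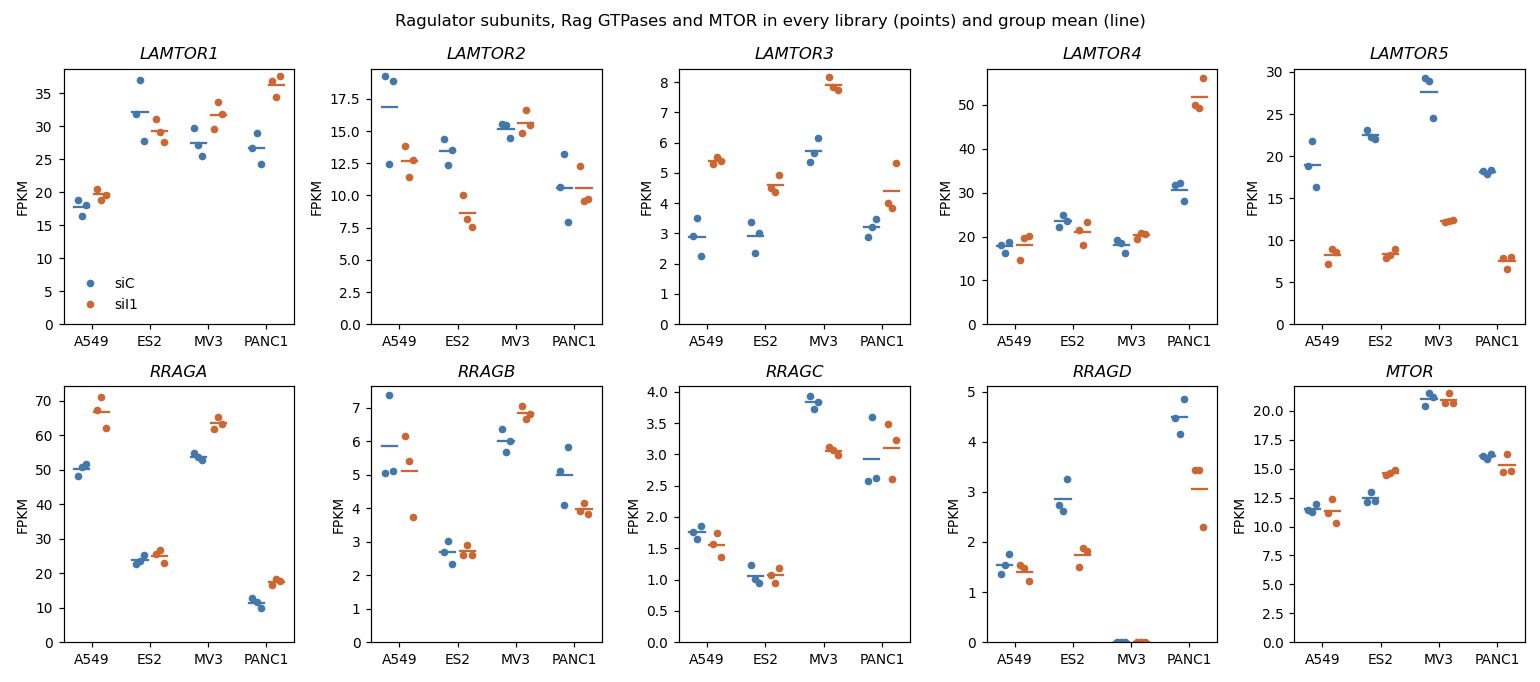
FPKM (vertical axis, linear and starting at 0) of the 10 genes in each of the 24 libraries, siC in blue and siI1 in orange, with a line at the mean of 3. LAMTOR5 points of siI1 lie below all siC points in every line, whereas LAMTOR3 points of siI1 lie above them; PANC1 values depend on the scale, as the FPKM of all genes summed to more in siI1 than in siC.

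An antisense gene, LAMTOR5-AS1, overlaps the locus on the opposite strand and shares 418 nt, or 17.5%, of the 2388 nt of merged LAMTOR5 exons. The library kit keeps the strand, but the strand setting used in counting is not given in the sources used here. Genes on the opposite strand also overlap LAMTOR1 (LRRC51 and LRTOMT), LAMTOR4 (TRAPPC14) and MTOR (ANGPTL7 and MTOR-AS1). LAMTOR5-AS1 levels were low, 0.289 to 0.675 FPKM in A549, where it was under the filter of the test. The log2 fold changes of LAMTOR5-AS1 were 0.12 in ES2, 0.09 in MV3 and −0.35 in PANC1, with limma adjusted p of 0.70, 0.585 and 0.314. The pseudogene LAMTOR5P1 had 0 to 2 reads per library, and LAMTOR3P1 and LAMTOR3P2 had 0 reads in all libraries.

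Calls among the partners fell in both directions. Of the 9 partners, LAMTOR3 and RRAGA were called higher in A549, and 0 were lower by limma at an adjusted p under 0.05 (22.2% called). Of all 18411 genes tested in A549, 13.8% were called, 7.83% lower and 5.93% higher. In A549, 0 partners were lower at an unadjusted p under 0.05 and 0 by voom on reads recovered from the FPKM values. In ES2, LAMTOR2 and RRAGD were lower and LAMTOR3 and MTOR higher (44.4% of 9, against 23.5% of 16920 genes, 13% lower and 10.5% higher). In MV3, RRAGC was lower and LAMTOR3 and RRAGA were higher (37.5% of the 8 partners tested, against 35.7% of 16380 genes, 19.5% lower and 16.3% higher). In PANC1, LAMTOR1, LAMTOR4 and RRAGA were higher and 0 were lower (33.3% of 9, against 24.8% of 15846 genes, 13.4% lower and 11.3% higher), where 1 was lower at an unadjusted p under 0.05 and 1 by voom. The PANC1 calls of LAMTOR1, LAMTOR4 and RRAGA each held in 13 of 14 alternatives and were lost only after rescaling to the same sum. Rescaling PANC1 to the same sum gave 5 lower and 0 higher. On that scale the median log2 fold change of all PANC1 genes was −0.68, and the share of all genes called is not given here.

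The median log2 fold change of the partners was −0.03 for A549, 0.01 for ES2, 0.17 for MV3 and 0.08 for PANC1. The medians of all genes tested were −0.01, −0.02, 0.01 and −0.04 in the same order. Partners whose siC and siI1 libraries did not overlap numbered 3, 4, 5 and 5, beside 34%, 42.1%, 50.4% and 43.2% of all genes tested. Of the 8 partners tested in all lines, LAMTOR3 and RRAGA were called higher in 3 lines each, which 3.19% of 12816 genes were in at least 3 lines (7.19% were lower in at least 3). Some of these calls depend on single libraries, as given with each gene.

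**Figure D2:**
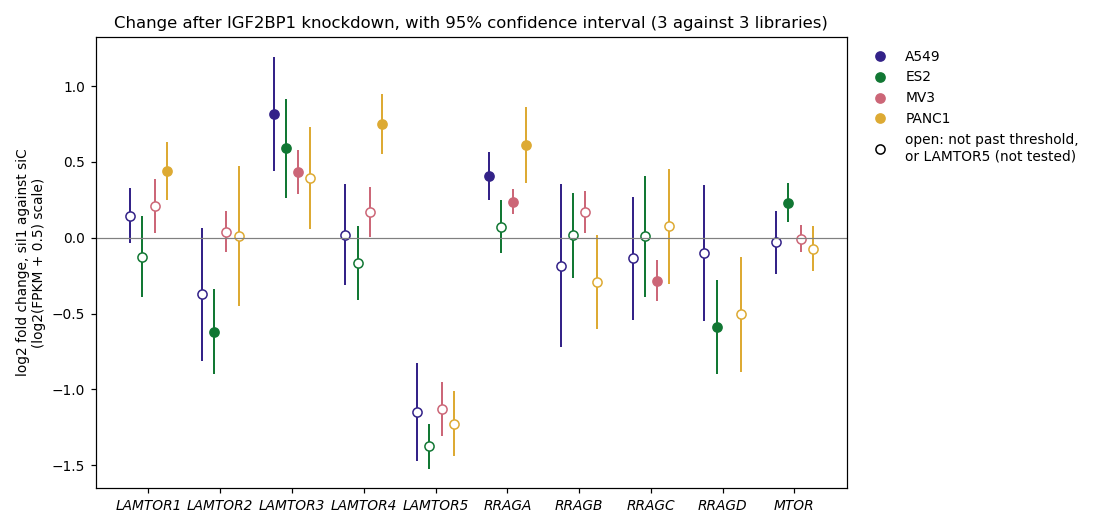
Log2 fold change of siI1 against siC on the log2(FPKM + 0.5) scale (vertical axis) for each gene and line, with 95% confidence intervals from limma; filled points passed an adjusted p of 0.05, and LAMTOR5 is open because it was not tested. LAMTOR5 lies between −1.37 and −1.13 in the 4 lines, and LAMTOR3 between 0.39 and 0.82; after rescaling to the same sum, LAMTOR1, LAMTOR2, LAMTOR3, RRAGA and RRAGC of PANC1 turn negative.

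LAMTOR4 (hg38, chr7:100148912-100155944), the roadblock partner of LAMTOR5, was upregulated in PANC1 and in no other line by limma. Its PANC1 libraries were at 31.9, 32.1 and 28.1 FPKM in siC and at 50.1, 49.3 and 56.2 FPKM in siI1. These groups did not overlap, with a log2 fold change of 0.75 ± 0.08 (SE; limma adjusted p = 0.00214). The value relative to the median of all PANC1 genes was 0.78, and 0.68 after rescaling to the same sum, on which scale the fold change itself was 0.00. In A549, ES2 and MV3 the LAMTOR4 log2 fold changes were 0.02, −0.16 and 0.17, with limma adjusted p of 0.95, 0.286 and 0.0946. The MV3 libraries, at 16.2 to 19.2 FPKM in siC and 19.4 to 20.7 FPKM in siI1, did not overlap.

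LAMTOR3 (chr4:99878336-99894428), known as MP1, a scaffold of the MAP kinase pathway, was higher in siI1 on the deposited scale. The siC libraries of A549 were at 2.90, 3.51 and 2.27 FPKM and its siI1 libraries at 5.29, 5.51 and 5.41 FPKM. In ES2, siC was at 3.39, 2.34 and 3.02 FPKM and siI1 at 4.51, 4.37 and 4.93 FPKM. In MV3, siC was at 5.38, 5.65 and 6.16 FPKM and siI1 at 8.15, 7.83 and 7.72 FPKM. Every siI1 library of these lines was thus above every siC library. In PANC1, too, siC was at 2.89, 3.22 and 3.49 FPKM and siI1 at 4.01, 3.86 and 5.33 FPKM, without overlap. Such higher values without overlap were found for 15.4%, 19.5%, 24.5% and 19.4% of all genes tested in A549, ES2, MV3 and PANC1.

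The log2 fold changes of LAMTOR3 were 0.82 ± 0.15 (SE) for A549, 0.59 ± 0.13 for ES2, 0.43 ± 0.06 for MV3 and 0.39 ± 0.14 for PANC1, with limma adjusted p of 0.0197, 0.0226, 0.00211 and 0.0833. LAMTOR3 was therefore upregulated in A549, ES2 and MV3, and the PANC1 difference missed the threshold, though it passed by voom (adjusted p = 0.0343). Relative to the median of all PANC1 genes it was 0.43, and 0.41 after rescaling to the same sum, while the rescaled fold change itself was −0.27. In MV3 the call held in all 14 alternatives. Leaving out 1 library lost it in 4 of 6 cases in A549 (siC 1 or any siI1 library, limma adjusted p of 0.0592 to 0.0696) and in 4 of 6 in ES2 (siC 3 or any siI1 library, 0.0540 to 0.0811). A549 had as few as 42 LAMTOR3 reads per library.

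LAMTOR2 (chr1:156054782-156058506), also called p14, pairs with LAMTOR3 in the other roadblock module. It was downregulated in ES2, where siC libraries were at 14.4, 12.4 and 13.5 FPKM and siI1 libraries at 10.1, 8.20 and 7.57 FPKM. These groups did not overlap and gave a log2 fold change of −0.62 ± 0.11 (SE; limma adjusted p = 0.0110). In A549 the value was −0.37 (limma adjusted p = 0.236), with siC libraries spread from 12.4 to 19.3 FPKM and overlapping siI1 at 11.5 to 13.8 FPKM. Leaving out siC 2, the lowest siC library, made LAMTOR2 lower there by limma (adjusted p = 0.0281). MV3 and PANC1 gave 0.04 and 0.01 (limma adjusted p = 0.603 and 0.972), and their groups overlapped. Relative to the median of all PANC1 genes, LAMTOR2 was at 0.05, and at −0.02 after rescaling to the same sum.

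LAMTOR1 (chr11:72085895-72103297), the lipid-anchored subunit that wraps the others and holds them to the membrane, was upregulated in PANC1. Its siC libraries there were at 26.7, 29.0 and 24.4 FPKM and its siI1 libraries at 36.9, 34.4 and 37.7 FPKM. The groups did not overlap, with a log2 fold change of 0.44 ± 0.08 (SE; limma adjusted p = 0.00972), or 0.48 relative to the median of all genes. After rescaling to the same sum, the fold change was −0.30 and its value relative to the median 0.38. LAMTOR1 in A549 gave 0.14 (limma adjusted p = 0.255), ES2 −0.13 (0.456) and MV3 0.21 (0.0654).

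As a description of the subunit balance, LAMTOR5 made up 21.9 to 31.0% of the summed FPKM of LAMTOR1 to LAMTOR5 in siC libraries of A549 and 11.6 to 13.9% in siI1. The shares were 22.5 to 24.6% and 10.6 to 12.3% in ES2, 28.2 to 30.2% and 13.4 to 14.5% in MV3, and 18.7 to 22.3% and 6.31 to 7.11% in PANC1. Such shares do not depend on the scaling of a library. Per LAMTOR3 unit, LAMTOR5 stood at 3.98 to 9.47 in the siC libraries of the 4 lines and at 1.35 to 1.97 in siI1. The siC ratios were 3.98 to 5.44 in MV3 and 6.83 to 9.47 in ES2. In siI1, too, MV3 (1.496 to 1.612) lay below ES2 (1.76 to 1.89) without overlap. The sum of the LAMTOR RNAs was 89.9 to 98.7 FPKM in siC and 68.1 to 75.1 FPKM in siI1 of ES2, and 82.3 to 95.4 FPKM and 104 to 117 FPKM in PANC1, before any rescaling.

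**Figure D3:**
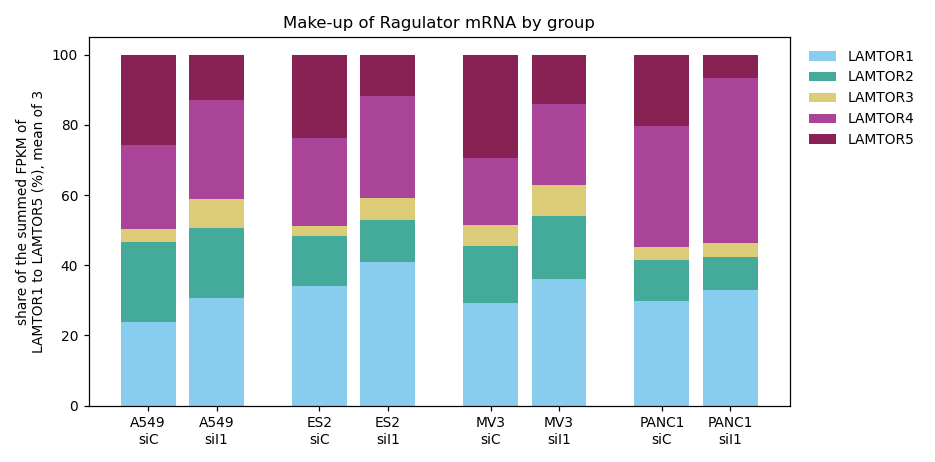
Share (%, vertical axis from 0 to 100) of each LAMTOR subunit in the summed FPKM of LAMTOR1 to LAMTOR5, as the mean of 3 libraries for siC and siI1 of each line. The LAMTOR5 segment shrinks from 25.7 to 12.8% for A549, 23.8 to 11.7% for ES2, 29.3 to 14.01% for MV3 and 20.4 to 6.76% for PANC1.

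Among the Rag GTPases, which work as dimers of RagA or RagB with RagC or RagD, RRAGA (chr9:19049427-19051025) was upregulated in A549, MV3 and PANC1. In A549, siC libraries were at 48.1, 50.9 and 51.8 FPKM and siI1 libraries at 67.3, 71.1 and 62.2 FPKM (log2 fold change 0.41 ± 0.06 SE, limma adjusted p = 0.0107). In MV3 they were at 55.0, 53.7 and 52.8 FPKM against 62.0, 65.4 and 63.3 FPKM (0.24 ± 0.03, limma adjusted p = 0.00213). In PANC1 they were at 12.8, 11.6 and 9.82 FPKM against 16.7, 18.3 and 17.7 FPKM (0.61 ± 0.10, limma adjusted p = 0.00809). The groups did not overlap in these lines. Relative to the median of all PANC1 genes, RRAGA was at 0.65 and at 0.56 after rescaling to the same sum, where the fold change itself was −0.12. In ES2 the value was 0.07 (limma adjusted p = 0.51), with overlapping groups at 22.7 to 25.2 and 23.1 to 26.7 FPKM.

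RRAGB (chrX:55717749-55758774), the close paralog of RRAGA, passed the test in none of the lines by limma; reads that could map to both were not examined. Its log2 fold changes were −0.19 for A549, 0.01 for ES2, 0.17 for MV3 and −0.29 for PANC1, with limma adjusted p of 0.645, 0.945, 0.0509 and 0.145. Relative to the PANC1 median, RRAGB was at −0.26, and at −0.29 after rescaling. Only the MV3 groups did not overlap, at 5.67 to 6.36 FPKM in siC and 6.64 to 7.05 FPKM in siI1. As a share of RRAGA plus RRAGB, RRAGA made up 87.3 to 91.0% in siC of A549, 88.7 to 91.5% in ES2 and 89.6 to 90.5% in MV3. PANC1 was lower in siC, at 62.8 to 73.9%, and at 81.0 to 82.3% in siI1.

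RRAGC (chr1:38838198-38859772) was downregulated in MV3, where siC libraries were at 3.94, 3.73 and 3.83 FPKM and siI1 libraries at 3.12, 3.07 and 2.99 FPKM. These groups did not overlap (log2 fold change −0.28 ± 0.05 SE, limma adjusted p = 0.00796). RRAGC gave −0.13 in A549, 0.01 in ES2 and 0.08 in PANC1, with overlapping groups and limma adjusted p of 0.657, 0.978 and 0.764. Relative to the PANC1 median, RRAGC was at 0.11 on both scales.

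RRAGD (chr6:89364616-89412273), the alternative to RRAGC in the dimers, had 0 reads in all 6 libraries of MV3. At this depth a count of 0 allows up to 3 reads per library, or 0.0292 to 0.0393 FPKM, counting error only. In ES2 its siC libraries were at 2.73, 2.61 and 3.25 FPKM and its siI1 libraries at 1.505, 1.89 and 1.82 FPKM. The groups did not overlap, and RRAGD was called lower (log2 fold change −0.59 ± 0.13 SE, limma adjusted p = 0.0197). The call was lost after leaving out siC 1, siC 3, siI1 1 or siI1 3 (limma adjusted p of 0.0502 to 0.0600) and after rescaling to the same sum (0.0564), among other settings. In PANC1, siC libraries were at 4.46, 4.15 and 4.86 FPKM and siI1 libraries at 3.43, 3.44 and 2.30 FPKM, without overlap.

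That PANC1 difference, −0.50 ± 0.15 (SE), missed the threshold by limma (adjusted p = 0.0589) and passed by voom (0.00794). Relative to the PANC1 median, RRAGD was at −0.47, and at −0.49 after rescaling. In A549, RRAGD gave −0.10 (limma adjusted p = 0.784). RRAGC made up all RRAGC plus RRAGD signal in MV3, 51.4 to 56.5% of it in siC of A549, and 22.4 to 31.1% in siC and 33.2 to 41.5% in siI1 of ES2.

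MTOR (chr1:11106535-11262556), the kinase that the complex recruits, passed the limma test in ES2 only. The ES2 libraries were at 12.1, 12.99 and 12.2 FPKM in siC and at 14.4, 14.7 and 14.9 FPKM in siI1, without overlap (log2 fold change 0.23 ± 0.05 SE, limma adjusted p = 0.0203). Leaving out any single library except siC 2 lost this call (limma adjusted p of 0.0510 to 0.0788). In A549, MV3 and PANC1 the fold changes were −0.03, −0.01 and −0.07, with limma adjusted p of 0.868, 0.905 and 0.421 and overlapping groups. Relative to the PANC1 median, MTOR was at −0.04, and at −0.12 after rescaling. The 95% interval for MV3, the deepest line with 3733 to 5295 MTOR reads per library, ran from −0.09 to 0.08.

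Whether the knockdown effect differed among the lines was tested for the 8 partners present in all of them by a limma F test over all 24 libraries. The test took no account of how deep the IGF2BP1 depletion was in each line. LAMTOR4 (adjusted p = 0.000513), RRAGA (0.00241), LAMTOR1 (0.0096) and MTOR (0.0113) passed this limma test, as did 45% of the 12816 genes tested. LAMTOR2 (0.0593), LAMTOR3 (0.192), RRAGB (0.247) and RRAGC (0.271) did not pass the limma F test. With 1 variance per line in place of a shared one, LAMTOR2 passed too (limma adjusted p = 0.0189). After rescaling to the same sum, LAMTOR4 no longer passed (limma adjusted p = 0.495). LAMTOR2 (0.0204), LAMTOR3 (0.00593) and RRAGB (0.00679) then did, as LAMTOR1, RRAGA and MTOR did on both scales. That rescaling put the median of all genes at −0.68 in PANC1 and between −0.04 and 0.04 in the other lines. The test on that scale cannot tell this shift from a difference of single genes. Relative to the PANC1 median, LAMTOR2, LAMTOR3 and RRAGB were at 0.05, 0.43 and −0.26 before it and −0.02, 0.41 and −0.29 after it.

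The order of the levels in siC differed from line to line. RRAGA led in A549 (50.3 ± 1.92 FPKM, SD, n = 3) and MV3 (53.8 ± 1.09 FPKM), without overlap with the next gene. LAMTOR1 led in ES2 (32.2 ± 4.60 FPKM), above RRAGA, LAMTOR4 and LAMTOR5, which overlapped one another at 23.9, 23.5 and 22.5 FPKM. LAMTOR4 led in PANC1 (30.7 ± 2.24 FPKM) and overlapped LAMTOR1 at 26.7 FPKM. LAMTOR5 ranked 2 from the top in A549 and MV3, 3 in PANC1 and 4 in ES2, and in MV3 it overlapped LAMTOR1, with means of 27.6 and 27.5 FPKM.

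In A549, LAMTOR5, LAMTOR1, LAMTOR4 and LAMTOR2, at 19.0, 17.8, 17.7 and 16.9 FPKM, could not be separated from their neighbours by their spread. LAMTOR3 was the least abundant LAMTOR RNA in every line, between 2.89 ± 0.621 FPKM in A549 and 5.73 ± 0.395 FPKM in MV3. RRAGC was at 1.06 ± 0.156 FPKM in ES2, the lowest level there. MTOR lay between 11.5 and 21.1 FPKM in siC means. FPKM here divides by the merged exon length of a gene, 2388 nt for LAMTOR5, 4226 nt for LAMTOR3 and 12119 nt for MTOR, so levels of genes with long merged exons may be understated. The tables were normalised line by line, and levels are set side by side without a test.

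Over the 24 libraries, with each line centred on its mean, the protein-coding genes most like LAMTOR5 were CCDC6 (Pearson r = 0.980), IGF2BP1 (0.979), HDLBP (0.977), BRI3BP (0.973) and SPC24 (0.970), among 9649 genes with a median r of 0.12. These points share libraries and the knockdown contrast, so r is a description. Among the partners tested in all lines, which leaves out RRAGD, LAMTOR3 (r = −0.825) and RRAGA (−0.778) ran opposite to LAMTOR5. LAMTOR2 (0.451) was the most alike of those compared. The log2 fold changes of CCDC6 ran from −3.21 to −2.47 over the lines and those of SPC24 from −0.97 to −0.73, beside −1.37 to −1.13 for LAMTOR5.

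The wider mTORC1 machinery was followed through 68 further genes in 11 lists, all found in the tables. In A549, 7 were lower and 7 higher by limma (20.9% of the 67 tested). In ES2, 13 were lower and 9 higher (33.8% of 65), and in MV3, 18 were lower and 14 higher (50% of 64). In PANC1, 3 were lower and 17 higher (30.8% of 65). After rescaling to the same sum, 37 were lower and 1 higher (BORCS6), with the median of all PANC1 genes at −0.68. The 17 genes called higher on the deposited scale were above the median of all PANC1 genes on both scales. This follows from their choice and from a rescaling that moves the genes of a library nearly alike, so it is no separate check. MIOS, ATP6V1A and ATP6V1D, described next, were at −0.81, −0.61 and −0.97 relative to that median on the deposited scale and at −0.87, −0.70 and −1.02 after rescaling. The shares among all genes tested were 13.8%, 23.5%, 35.7% and 24.8% on the deposited scale, as above, and are not given for the rescaled PANC1 values. The median log2 fold changes were −0.05, −0.11, 0.00 and 0.10 for A549, ES2, MV3 and PANC1.

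Calls in all 4 lines were made for 5 of these genes. MIOS, ATP6V1A and ATP6V1D were lower in every line, as were 2.51% of the 12816 genes tested, and KPTN and SESN1 were higher in every line, as were 0.577%. MIOS, a subunit of the GATOR2 complex that activates mTORC1 by restraining GATOR1, fell by 0.51 for A549, 0.60 for ES2, 0.82 for MV3 and 0.85 for PANC1 on the log2 scale, with limma adjusted p of 0.0120, 0.00316, 0.000308 and 0.00291. Its mean FPKM in MV3 was 8.33 ± 0.0435 in siC and 4.51 ± 0.374 in siI1 (SD, n = 3). Other GATOR2 genes were lower in fewer lines, with WDR24 called in ES2 and MV3 and SEH1L and SEC13 in MV3. NPRL2, lower in ES2, was the only call among the 3 GATOR1 genes.

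KPTN, a subunit of the KICSTOR complex that places GATOR1 on the lysosome, rose by 0.88, 0.64, 0.67 and 0.73 in A549, ES2, MV3 and PANC1 (limma adjusted p of 0.00626, 0.00549, 0.000775 and 0.00613). In A549 its mean was 4.005 ± 0.540 FPKM in siC and 7.78 ± 0.435 FPKM in siI1. The PANC1 call was lost after rescaling to the same sum (0.02, limma adjusted p = 0.938), while the value relative to the median of all genes was 0.76 before and 0.70 after it. ITFG2 and C12orf66, also KICSTOR genes, passed in no line by limma.

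The Sestrins, sensors that bind GATOR2 when leucine is scarce, split. SESN1 was higher by 0.47, 0.52, 0.63 and 0.62 in the 4 lines (limma adjusted p of 0.0376, 0.0321, 0.0157 and 0.0235). These calls were fragile, as they held in 1, 1, 4 and 2 of the 6 cases with 1 library left out in A549, ES2, MV3 and PANC1, and the A549 and PANC1 calls were lost after rescaling to the same sum. SESN2 was lower by limma in A549 (−0.94, adjusted p = 0.00338), ES2 (−1.25, 0.000745) and MV3 (−0.46, 0.0109), and gave −0.20 in PANC1 (0.260). In ES2 its mean went from 7.57 ± 0.116 to 2.91 ± 0.408 FPKM. SESN3, tested only in ES2, was higher there (0.85, limma adjusted p = 0.00262).

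The V-ATPase, the proton pump that acidifies lysosomes and binds Ragulator, had 4, 5, 10 and 8 of its 16 genes called in A549, ES2, MV3 and PANC1, or 25%, 31.2%, 62.5% and 50%, against 13.8%, 23.5%, 35.7% and 24.8% of all genes tested. These were 2 lower and 2 higher in A549, 4 and 1 in ES2, 6 and 4 in MV3, and 2 and 6 in PANC1. ATP6V1A, the catalytic subunit, fell by 0.83, 0.40, 0.74 and 0.65 on the log2 scale (limma adjusted p of 0.00289, 0.0129, 0.000134 and 0.00213), and its ES2 call was lost after rescaling to the same sum. ATP6V1D, a subunit of the rotor stalk, fell by 1.27, 0.66, 0.92 and 1.00 (limma adjusted p of 0.00297, 0.00388, 0.000166 and 0.000869). In A549 the ATP6V1D mean was 13.2 ± 0.460 FPKM in siC and 5.24 ± 1.00 FPKM in siI1. The accessory subunit ATP6AP1 went the other way, with 1.34 in ES2, 0.74 in MV3 and 0.48 in PANC1 (limma adjusted p of 0.00213, 0.00380 and 0.0311) and 0.22 in A549 (0.335). The PANC1 call of ATP6AP1 was lost in 5 of 6 cases with 1 library left out (all but siC 2) and after rescaling to the same sum.

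**Figure D4:**
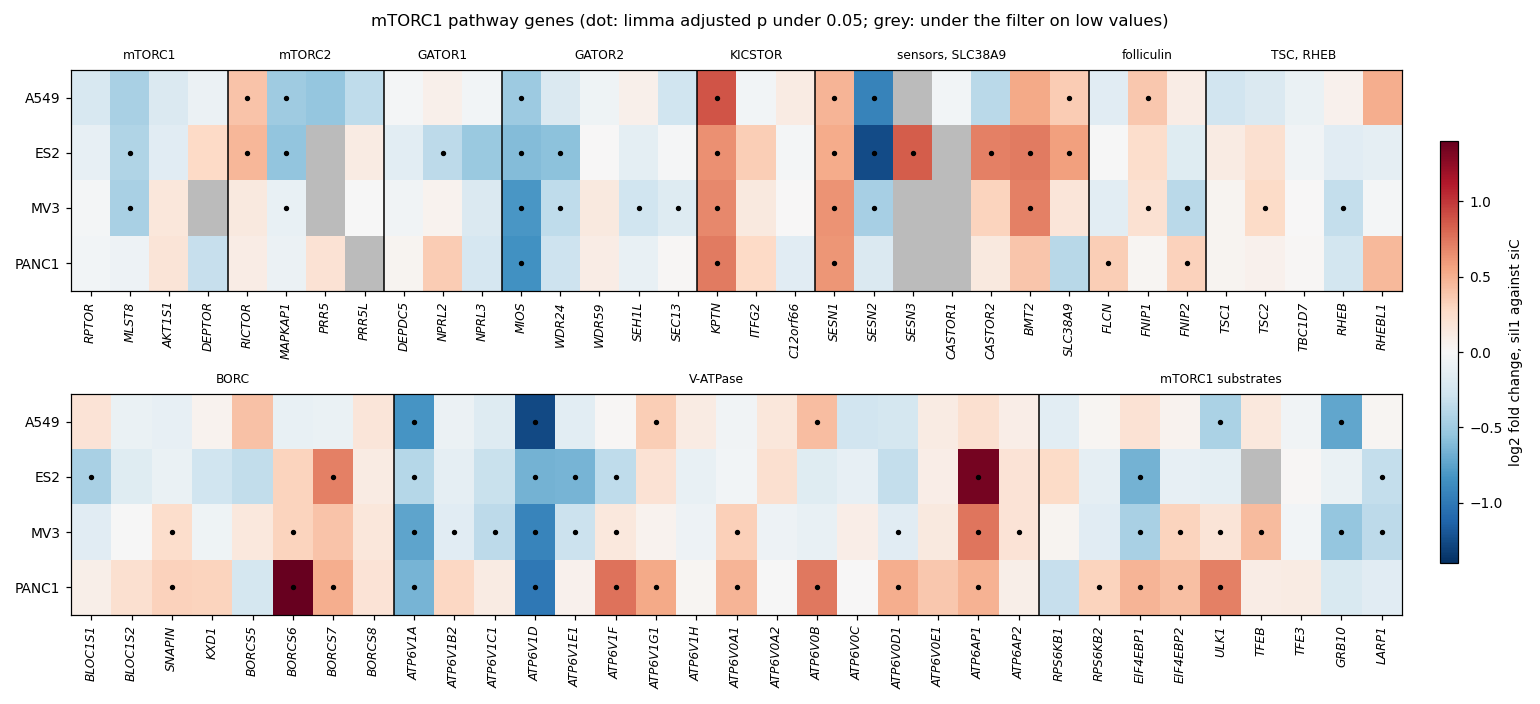
Log2 fold change of siI1 against siC (colour, red higher and blue lower) for pathway genes in the 4 lines, grouped by list; a dot marks a limma adjusted p under 0.05 and grey a gene under the filter. MIOS, ATP6V1A and ATP6V1D are blue with dots in all lines and KPTN and SESN1 red with dots. In PANC1 the 3 lower and 17 higher calls became 37 lower and 1 higher after rescaling to the same sum. That scale put the median of all PANC1 genes at −0.68.

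Among the subunits that make mTOR part of a complex, MLST8, found in both mTORC1 and mTORC2, was lower by limma in ES2 (−0.43, adjusted p = 0.0260) and MV3 (−0.45, 0.00399), with −0.45 in A549 (0.0943) and −0.07 in PANC1 (0.628). RPTOR, which defines mTORC1, gave −0.22, −0.12, −0.03 and −0.04 in A549, ES2, MV3 and PANC1, with limma adjusted p from 0.256 to 0.786. RICTOR, which defines mTORC2, was higher by limma in A549 (0.40, adjusted p = 0.0301) and ES2 (0.46, 0.00662) and gave 0.14 in MV3 (0.0869) and 0.10 in PANC1 (0.514). The A549 call was lost after leaving out siC 1, siC 3 or any siI1 library, or after rescaling to the same sum. MAPKAP1, another mTORC2 subunit, was lower by limma in A549 (−0.50, adjusted p = 0.00650), ES2 (−0.55, 0.00437) and MV3 (−0.10, 0.0335). Its MV3 call was lost by voom and in 5 of 6 cases with 1 library left out (all but siC 3).

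RHEB, the GTPase that switches mTORC1 on, was lower by limma in MV3 (−0.33, adjusted p = 0.00146), at 32.7 ± 1.55 FPKM in siC and 25.9 ± 0.258 FPKM in siI1. It gave 0.06, −0.16 and −0.25 in A549, ES2 and PANC1 (limma adjusted p of 0.838, 0.0918 and 0.0506). EIF4EBP1, the translation repressor that mTORC1 phosphorylates, was lower by limma in ES2 (−0.67, adjusted p = 0.00113) and MV3 (−0.46, 0.00784) and higher in PANC1 (0.48, 0.0471), with 0.21 in A549 (0.332). The PANC1 call was lost after rescaling to the same sum and after leaving out any library but siC 2 in turn. In ES2, EIF4EBP1 went from 143 ± 6.63 to 89.7 ± 6.02 FPKM. TFEB, a lysosomal transcription factor that mTORC1 keeps in the cytoplasm, was higher by limma in MV3 (0.44, adjusted p = 0.0420). This call was lost in each of the 6 cases with 1 library left out and after rescaling to the same sum, among other settings. The MV3 siC mean of TFEB was 0.526 FPKM, close to the filter. TFEB gave 0.15 in A549 and 0.11 in PANC1 (limma adjusted p of 0.786 and 0.752) and was under the filter in ES2.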

How the data were processed

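The study's authors trimmed paired-end reads with cutadapt 1.14, mapped them to hg38 with HISAT2 2.1.0 and SAMtools 1.5, counted genes with featureCounts 1.5.3 and scaled them by TMM in edgeR 3.30.3, per the labels and methods. The deposited values are FPKM per gene and library, 1 table per line, normalised per line by the authors; their own fold change and p columns were not used. Every FPKM value times gene length was a whole multiple of one step per library (tolerance 0.01), which gave the assigned reads per library and of each gene. Replicates are biological triplicates per the methods.

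The main test was limma 3.58.1 (R 4.3.3; lmFit, eBayes with trend, two-sided) on log2(FPKM + 0.5) over the 6 libraries of a line, keeping genes whose mean reached 0.5 FPKM; p-values were adjusted by Benjamini-Hochberg within a line over its tested genes, with 0.05 as threshold. A limma F test over 24 libraries compared fold changes between lines. Alternatives changed the pseudocount, filter, scaling (same FPKM sum, or no TMM factor), tool (voom on recovered reads), replicate block and single libraries. For the F test, 1 alternative used 1 variance per line. Scripts were tested on simulated data, where the share of false calls among all calls exceeded 0.05 in each line, so adjusted p values close to the threshold are likely too small. Intervals and floors cover counting error only where they rest on reads.

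The members and lists were chosen with earlier results of these data known. Genes named are IGF2BP1, the members, other LAMTOR and RRAG symbols, list genes called the same way in at least 3 lines, RPTOR, RICTOR, RHEB, EIF4EBP1, TFEB and the 5 protein-coding genes best correlated with LAMTOR5. WDR24, SEH1L, SEC13, NPRL2, SESN3 and other list genes were named after their values were seen. Annotation and sequences are from GENCODE 44 (hg38); protein sequences were not used here, 1 list gene counted in the totals is neither plotted nor reported here, and many others are given by counts only.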

Additional observations from a re-analysis of the deposited data

Results flagged for a closer look

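The effect of IGF2BP1 knockdown differed among the 4 lines for 4 of the 8 partners tested by the limma F test. This share is close to the 45% of all genes, so the count is nothing particular to the partners. The limma adjusted p was 0.000513 for LAMTOR4, with log2 fold changes of 0.02 for A549, −0.16 for ES2, 0.17 for MV3 and 0.75 for PANC1. It was 0.00241 for RRAGA, with 0.41, 0.07, 0.24 and 0.61 in the same order. It was 0.0096 for LAMTOR1, with 0.14, −0.13, 0.21 and 0.44. It was 0.0113 for MTOR, with −0.03, 0.23, −0.01 and −0.07. On the deposited scale, the highest value of LAMTOR4, RRAGA and LAMTOR1 was that of PANC1. IGF2BP1 depletion was also deepest there, with siI1 at 0.281 of the siC level, against 0.342 (ES2), 0.350 (MV3) and 0.401 (A549). Whether this depth bears on the differences between lines was not tested. The later harvest of PANC1 cannot be told apart from the line, and the part of its uneven FPKM sums shows in the rescaled values given last. Without the libraries numbered 1, LAMTOR4 (limma adjusted p = 0.0112) and RRAGA (0.0165) passed and LAMTOR1 (0.0868) and MTOR (0.232) did not. Without those numbered 3, LAMTOR4 (0.0187) and RRAGA (0.0332) passed and LAMTOR1 (0.0678) and MTOR (0.211) did not. Without those numbered 2, LAMTOR4, LAMTOR1, LAMTOR2 and MTOR passed the limma F test and RRAGA (adjusted p = 0.0562) did not. After rescaling to the same sum, 6 of the 8 passed the limma F test, and the share of all genes passing on that scale is not given here. They were MTOR (limma adjusted p = 3.38e-05), LAMTOR3 (0.00593), RRAGB (0.00679), LAMTOR1 (0.0158), LAMTOR2 (0.0204) and RRAGA (0.0304). LAMTOR4 (limma adjusted p = 0.495) and RRAGC (0.0540) did not pass. As that scale put the median of all PANC1 genes at −0.68, these passes cannot be read as results about single genes. On that scale PANC1 was the lowest line for LAMTOR1 (−0.30, against 0.11 in A549, −0.06 in ES2 and 0.19 in MV3) and for RRAGA (−0.12, against 0.37, 0.14 and 0.23).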

How the results depend on the processing

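Of the member fold changes recomputed under the alternatives, 25 turned sign, among them the called LAMTOR1 and RRAGA of PANC1 after rescaling to the same sum. With the sign kept, 23 lost and 20 gained the threshold. LAMTOR5, which has no threshold, was counted as kept where it moved by less than its spread between libraries. On these terms 475 were kept and 3, all of LAMTOR5, moved beyond their spread. Of the counts, 91 stayed within 1.5 times and 31 did not. Where no cause follows from the alternative itself, the cause was not tested. Rescaling PANC1 to the same FPKM sum put the median of all its genes at −0.68 and gave 5 partner calls, all lower, and 38 pathway calls. It turned LAMTOR1 to −0.30, LAMTOR2 to −0.71, LAMTOR3 to −0.27, RRAGA to −0.12 and RRAGC to −0.57, and put LAMTOR5 at −1.95. The same rescaling put LAMTOR4 of A549 at −0.014. Without the TMM factor, PANC1 had 5 and MV3 6 partner calls, LAMTOR2 and RRAGC of PANC1 were at −0.145 and −0.065, MTOR of MV3 at 0.05 and LAMTOR5 of PANC1 at −1.39. Scaling without the TMM factor put the median of all genes at −0.18 in PANC1 and 0.06 in MV3. With voom, MV3 and PANC1 each had 5 partner calls. The shares of all genes called under the alternatives of this section are not given here. These counts therefore show dependence on the processing only and are no result about the partners.

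Leaving out 1 library gave 1 to 3 partner calls in A549, 1 to 4 in ES2, 3 to 5 in MV3 and 3 to 4 in PANC1, and 8 to 12, 16 to 22, 19 to 28 and 10 to 18 pathway calls. Leaving out 1 replicate number gave 2 to 4 partners differing between lines. Signs turned within these ranges: LAMTOR2 −0.004 to 0.076 in MV3 and −0.171 to 0.18 in PANC1, LAMTOR4 −0.06 to 0.164 in A549, RRAGB −0.324 to 0.004 in A549 and −0.065 to 0.09 in ES2, RRAGC −0.048 to 0.088 in ES2, and MTOR −0.096 to 0.032 in A549 and −0.027 to 0.008 in MV3; none of these was called in the main result.

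siC and siI1 libraries of the same number showed no strong shared deviation (r of −0.06 to 0.07). This cannot show whether the numbers mark matched pairs, which the labels do not state, and the main test used no pairing. With the replicate number as a block, partner calls were 0 in A549 (LAMTOR3 and RRAGA lost) and 2 in ES2 (RRAGD and MTOR lost), and pathway calls 6 in A549 and 21 in MV3. Depth limits the lowest values most: RRAGC had 25 to 42 and RRAGD 22 to 39 reads per library in A549.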

Other observations

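BORC, the lysosome positioning complex that binds Ragulator, had 0, 2, 2 and 3 of its 8 genes called in A549, ES2, MV3 and PANC1 by limma, against 13.8%, 23.5%, 35.7% and 24.8% of all genes tested. In A549, 1 of the 8 (BORCS5) had an unadjusted limma p under 0.05. The PANC1 calls were all higher on the deposited scale, as were 11.3% of all genes tested. BORCS6, a subunit of this complex, went from 4.76 ± 0.570 to 13.4 ± 1.26 FPKM in PANC1 (SD, n = 3; log2 fold change 1.402, limma adjusted p = 0.00108) and from 6.17 ± 0.381 to 7.77 ± 0.567 FPKM in MV3 (0.31, 0.0148). It gave −0.11 in A549 and 0.31 in ES2, with limma adjusted p of 0.668 and 0.0935. BORCS7 was higher in ES2 (0.70, limma adjusted p = 0.00253) and PANC1 (0.51, 0.00689), and SNAPIN in MV3 (0.25, 0.00422) and PANC1 (0.32, 0.0127). BLOC1S1, which BORC shares with another complex, was lower in ES2 (−0.45, limma adjusted p = 0.0135). These genes were chosen after their values were seen.

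In the folliculin complex, which acts on RagC and RagD, FNIP1 was higher by limma in A549 (0.38, adjusted p = 0.0222) and MV3 (0.21, 0.0186), and FLCN in PANC1 (0.35, 0.0248). FNIP2, the paralog of FNIP1, was lower by limma in MV3 (−0.38, adjusted p = 0.0300) and higher in PANC1 (0.32, 0.0271). ULK1, the autophagy kinase that mTORC1 restrains, was lower by limma in A549 (−0.45, adjusted p = 0.0362) and higher in MV3 (0.18, 0.0268) and PANC1 (0.70, 0.00415). BMT2, the sensor of S-adenosylmethionine also called SAMTOR, was higher by limma in ES2 (0.73, adjusted p = 0.00543) and MV3 (0.71, 0.000316) and gave 0.53 in A549 (0.103) and 0.39 in PANC1 (0.0544). Of the PANC1 rises named here, BORCS6 stayed called after rescaling to the same sum (0.70, limma adjusted p = 0.00504), whereas SNAPIN, BORCS7, FLCN, FNIP2 and ULK1 did not, at −0.42, −0.19, −0.34, −0.37 and −0.01. The differences between lines are not described for these genes.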
